A study of Mus musculus with 8 samples.

Results

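The mitochondrial ribosomal protein genes described here were taken as all rows of the deposited gene tables whose symbol is Mrpl or Mrps followed by a number and at most 1 letter. The rule used no measured value and found 76 members among 38215 genes. The mitochondrial ribosome translates the messenger RNAs encoded by mitochondrial DNA, which specify core subunits of the respiratory chain and of ATP synthase. Its ribosomal RNAs are transcribed inside the organelle, whereas its proteins are encoded in the nucleus, made in the cytosol and imported. Regulatory T cells (Treg) draw strongly on mitochondrial respiration, for which this machinery is required.

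The RNAseq data compared FoxP3+ Treg sorted from the bone marrow (BM-Treg) with FoxP3+ Treg sorted from the spleen (SP-Treg) of naïve B6.FoxP3-GFP mice of 12 weeks, a C57Bl/6 strain in which a green fluorescent protein marks cells that express FoxP3. There were 4 libraries per tissue, which the methods call biological replicates, and the sources used here do not say how many mice contributed to each. BM-Treg replicates 1 to 3 are labelled female and batch 1, whereas BM-Treg replicate 4 and SP-Treg replicates 1 to 4 are labelled male and batch 3. RNA was amplified with an isothermal method before sequencing, and counts on genes totalled between 12427124 and 21921248 per library. The members together received between 12773 and 24677 of those counts, and the lowest count of any member in any library was 16.

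The labels were first checked against the transcripts. All 8 libraries had the transcripts that define Treg: Foxp3 lay between 1257 and 2089 CPM (counts relative to library depth, scaled between libraries by the trimmed mean of M-values, TMM), Cd4 between 674 and 1006 CPM, and Ctla4 between 884 and 1308 CPM. Of the 9 of 9 Treg genes matched and tested, edgeR called 0, with 0 higher and 2 lower at an unadjusted p below 0.05, limma-voom and limma-trend 0, and DESeq2 1, Il2ra, lower, as did edgeR without SP-Treg replicate 1. Without BM-Treg replicates 1 and 2, edgeR called 0, with 2 higher and 0 lower at an unadjusted p below 0.05. The sex labels held in part. Xist, which is transcribed from an inactive X chromosome, reached 1215, 2280 and 2333 CPM in the 3 libraries labelled female and at most 2.61 CPM in the libraries labelled male, and over the tissues it was called higher in BM-Treg (log2 fold change 9.41, edgeR adjusted p 0.0391). Yet Ddx3y, which lies on the Y chromosome, was at 46.0 and 16.02 CPM in BM-Treg replicates 1 and 2, against 0.540 CPM in replicate 3 and 55.8 CPM in replicate 4, which is labelled male. BM-Treg replicates 1 and 2 thus carried transcripts of both sexes and went against their label, so that the calls among the members and among the other named genes are also given without them. Without them Xist was not called (adjusted p 0.175), and with single libraries left out it was called in 1 of 8 cases.

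Libraries of the same tissue differed as well. Over all genes, SP-Treg replicate 1 stood apart from the other spleen libraries, with a chi-square per degree of freedom of 53.1, 92.4 and 73.8 against SP-Treg replicates 2, 3 and 4, which differed among themselves by at most 26. In the marrow, BM-Treg replicate 4, the only one of batch 3, was the farthest from the others, at 40.6, 41.2 and 45.3 against BM-Treg replicates 1, 2 and 3, which differed among themselves by 14.2 to 31.1. Mitochondrially encoded genes took 19.2% of the counts of SP-Treg replicate 1 and between 29.6 and 32.9% of those of the other spleen libraries. Calls are therefore also given without SP-Treg replicate 1.

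Markers of other cells were low but uneven. The 6 of 6 B cell markers matched summed to 12.3, 11.2, 11.5 and 14.8 CPM in BM-Treg replicates 1 to 4, and to 6.94, 97.4, 20.8 and 15.8 CPM in SP-Treg replicates 1 to 4, with Cd79b the most abundant and Pax5 at 0 in SP-Treg replicate 1. The 4 of 7 erythroid markers matched, led by Hba-a2, summed to 4.71, 9.55, 7.60 and 8.56 CPM in BM-Treg and to 1.16, 61.3, 127 and 77.2 CPM in SP-Treg. SP-Treg replicates 2 to 4 thus held more of these transcripts than SP-Treg replicate 1 and the BM-Treg libraries. The 5 of 5 CD8 T and NK cell markers, led by Cd8b1, summed to 12.4, 11.9, 12.4 and 10.9 CPM in BM-Treg and to 13.95, 42.6, 24.0 and 17.7 CPM in SP-Treg, with Ncr1, Klrb1c and Klra8 at 0 in all BM-Treg libraries. Of these, Cd8a was at 0.920, 1.72, 0.899 and 0.839 CPM in BM-Treg and at 1.81, 20.9, 6.53 and 5.94 CPM in SP-Treg. SP-Treg replicate 1 lay just above the marrow and the other spleen libraries well above it, and Cd8a was called lower in BM-Treg (log2 fold change of BM-Treg against SP-Treg -2.99, edgeR adjusted p 0.0293). The 8 of 8 neutrophil markers, led by Ngp, summed to 2.38, 4.33, 1.35 and 10.1 CPM in BM-Treg and to 0.217, 17.5, 8.85 and 6.60 CPM in SP-Treg, with Retnlg at 0 in 5 libraries. The 6 of 6 monocyte and macrophage markers, led by Lyz2, summed to 19.2, 19.9, 14.1 and 14.01 CPM in BM-Treg and to 7.45, 27.6, 28.3 and 18.1 CPM in SP-Treg. SP-Treg replicate 1 was again the lowest library of both lists.

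The 5 of 5 pDC markers summed to 57.3, 48.2, 61.2 and 57.2 CPM in BM-Treg and to 37.5, 53.8, 66.6 and 63.9 CPM in SP-Treg, nearly all of it from Ccr9 and Pacsin1, while the defining Siglech was at most 0.812 CPM and Klk1 and Cox6a2 were at or near 0. Pacsin1 was at 18.2, 18.4, 27.3 and 17.3 CPM in BM-Treg and at 28.7, 31.8, 24.97 and 31.6 CPM in SP-Treg. BM-Treg replicate 3 lay above SP-Treg replicate 3, the others below the spleen, and Pacsin1 was called lower in BM-Treg (log2 fold change -0.55, edgeR adjusted p 0.0415). The 5 of 6 plasma cell markers matched summed to 337, 439, 504 and 344 CPM in BM-Treg and to 498, 433, 376 and 355 CPM in SP-Treg, led by Prdm1, which Treg also express; Sdc1 was at most 0.580 CPM. The near-equal sums rest on Prdm1 and Xbp1, whereas Igj was at 0.0541, 0.279, 0.405 and 0 CPM in BM-Treg and at 0.217, 24.4, 8.85 and 5.58 CPM in SP-Treg. It was thus higher in SP-Treg replicates 2 to 4 than in SP-Treg replicate 1 and the marrow. The 8 of 8 proliferation markers, led by Mki67, summed to 1666, 1199, 966 and 1977 CPM in BM-Treg and to 1496, 1380, 1722 and 1669 CPM in SP-Treg. BM-Treg libraries lay both below and above the spleen in that sum, most of which is Mki67 (log2 fold change -0.02), while all 8 markers had estimates below 0 and 4 were lower at an unadjusted p below 0.05 by edgeR (Mcm5, Pcna, Top2a and Tyms). The 4 lower are 50% of the markers, beside 12.4% of all genes tested. Without BM-Treg replicates 1 and 2 the number lower was 1 (12.5%), beside 8.34% of the genes tested with all libraries. It was 3 (37.5%) without SP-Treg replicate 1, beside 10.5%, and 1 (12.5%) by limma-trend, beside 7.47%. Of these markers Mcm5 was at 15.8, 15.1, 13.3 and 20.4 CPM in BM-Treg and at 33.6, 21.6, 29.7 and 36.9 CPM in SP-Treg. The tissues did not overlap, with BM-Treg replicate 4 close to SP-Treg replicate 2, and Mcm5 was called lower (log2 fold change -0.94, edgeR adjusted p 0.00463).

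Without BM-Treg replicates 1 and 2, none of Cd8a, Pacsin1 and Mcm5 was called by edgeR, with adjusted p of 0.201, 0.347 and 0.0886, while Klrb1c, named after its values were seen, was then called lower in BM-Treg. With batch as a term none of Xist, Cd8a, Pacsin1 and Mcm5 was called (adjusted p 0.804, 0.270, 0.128 and 0.259), and the estimate of Xist went from 9.41 to 0.29. In that model the tissue estimate rests on BM-Treg replicate 4 against the spleen, since batch 1 holds no spleen library. The calls lost there are thus no measure of a batch effect. With single libraries left out, Mcm5 was called in 8 of 8 cases, Cd8a in 4, which are those with all BM-Treg libraries kept, and Pacsin1 in 2. Without SP-Treg replicate 1, Pacsin1 was not called (adjusted p 0.0835), while Alas2, Hba-a1, Hba-a2, Ngp and Igj, named after their values were seen, were then called lower in BM-Treg. The part that other cells, proliferation or the share of mitochondrially encoded transcripts had in the results below was not tested.

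All 76 members were detected in each library and passed the expression filter, so that none was lost from the comparison. Of these, 0 were called higher and 1 was called lower in BM-Treg by edgeR's quasi-likelihood test at a Benjamini-Hochberg adjusted p below 0.05, taken over all 13397 genes tested. Over all genes tested, 3.72% were called higher and 5.02% lower, which is 8.75% in either direction, or 1172 genes. At an unadjusted p below 0.05, 2 members were higher and 6 were lower, against 10.9% and 12.4% of all genes tested. This balance turned with limma-trend on log2(FPKM + 1), by which 6 members were higher and 1 was lower, against 13.8% and 7.47% of all genes tested. The member called by edgeR was Mrps6. DESeq2 and limma-trend on FPKM values (a level per transcript length, corrected for depth) each called 1 member higher, Mrpl34, and limma-voom called 0, and all 3 called 1 member lower, Mrps6. Of all genes they tested, DESeq2 called 13.3%, limma-voom 9.09% and limma-trend on log2(FPKM + 1) 5.71%. In bulk libraries such as these, fewer cells that transcribe a gene and less RNA per cell cannot be told apart. The 499 genes called higher and 673 called lower among all genes became 655 and 427 when libraries were scaled by their totals alone, whereas the member counts were 0 and 1 under both scalings. Without BM-Treg replicates 1 and 2, 0 members were called in either direction by edgeR, with 5 higher and 2 lower at an unadjusted p below 0.05, against 9.32% and 8.34% of the genes tested with all libraries, and 2.24% of all genes tested were called. Without SP-Treg replicate 1, 0 were called higher and 1 lower, with 3 and 2 at an unadjusted p below 0.05, against 10.4% and 10.5% of the genes tested with all libraries. Then 6.89% of all genes tested were called, and the members' median was -0.05.

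The estimates for the members lay close to 0. The log2 fold change of BM-Treg against SP-Treg, which is above 0 where BM-Treg is higher, had a median of -0.03 over the members, with quartiles of -0.16 and 0.08, beside a median of -0.01 and quartiles of -0.24 and 0.22 over all genes tested. It was above 0 for 34 members and below 0 for 42. The sign of the members' median was not stable under scaling, since it was 0.04 with library totals alone, where the median over all genes was 0.06, and 0.08 without BM-Treg replicates 1 and 2. Taken gene by gene, the 95% interval lay wholly within a 2-fold change in either direction for 70 of the 76 members (92.1%), against 72.0% of all genes tested. It lay within a 1.5-fold change for 46 members (60.5%), against 42.2% of all genes. The 6 members whose interval reached past 2-fold were Mrps6, Mrpl11, Mrps27, Mrps28 and Mrpl23 on the lower side and Mrps34 on the higher side. For the other members a change of 2-fold or more was thus outside the interval in this model, which has no batch term; with one, the estimate of Mrps33 was past 2-fold.

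**Figure D1:**
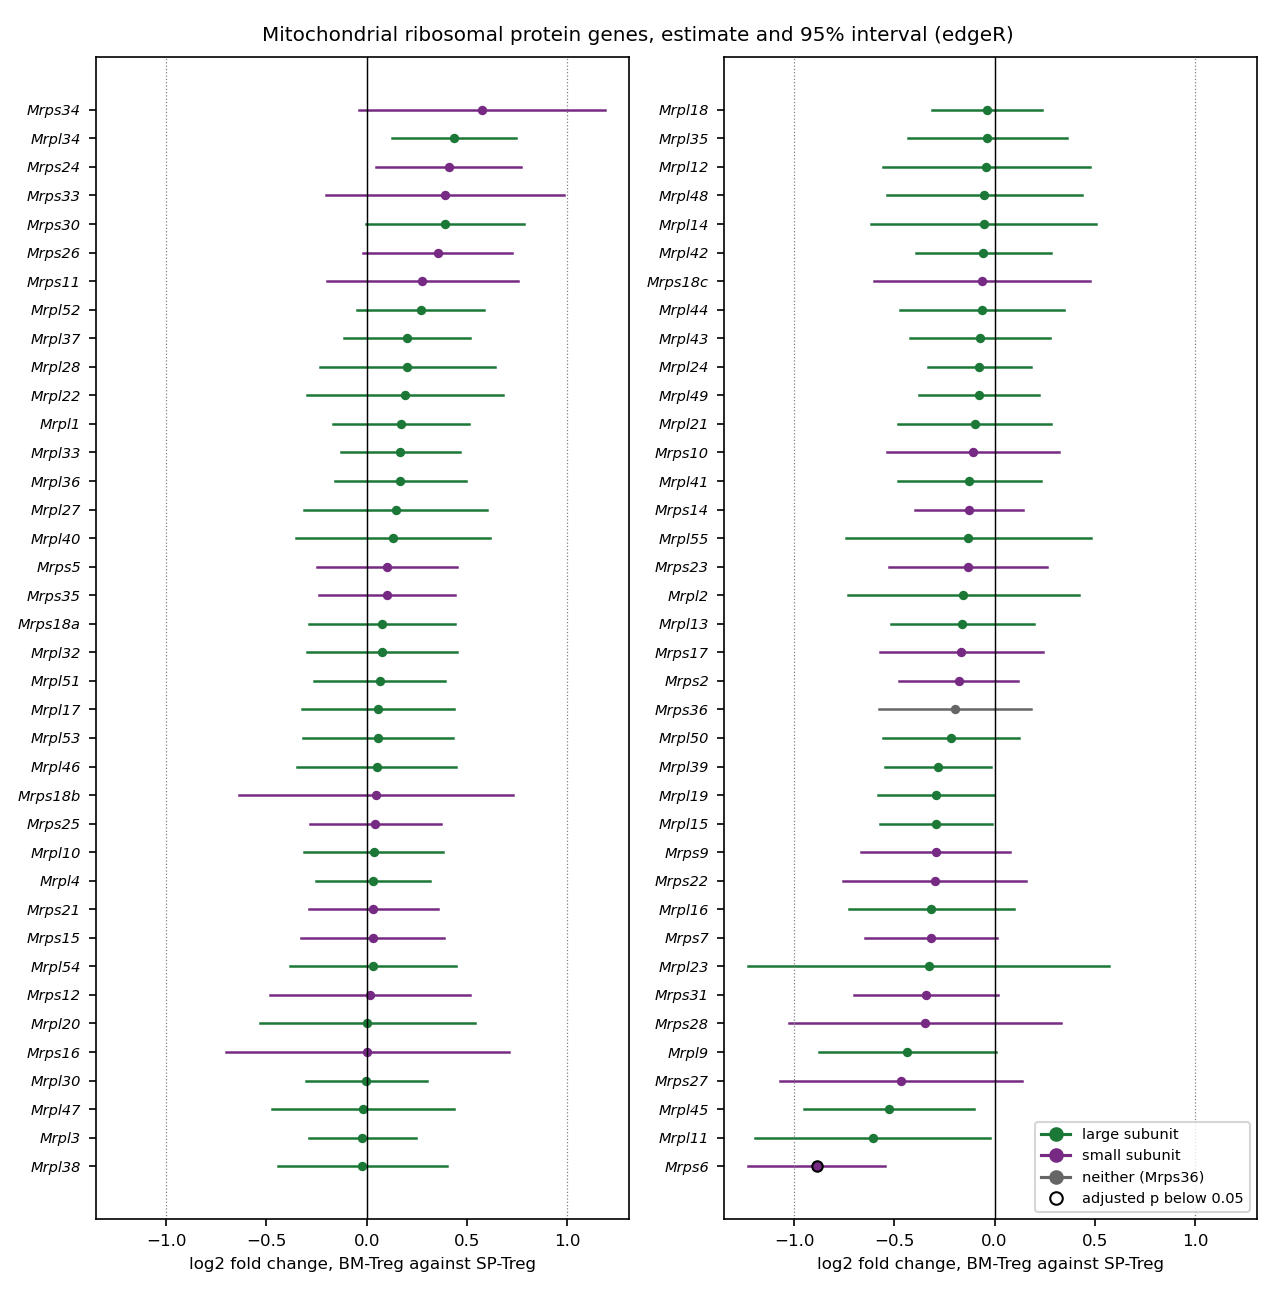
Log2 fold change of BM-Treg against SP-Treg for each of the 76 members (points) with its 95% interval from edgeR (lines), in order from the highest estimate, Mrps34, to the lowest, Mrps6. Dotted lines mark a 2-fold change in either direction, and the circled point, Mrps6, is the 1 member with an adjusted p below 0.05.

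**Figure D2:**
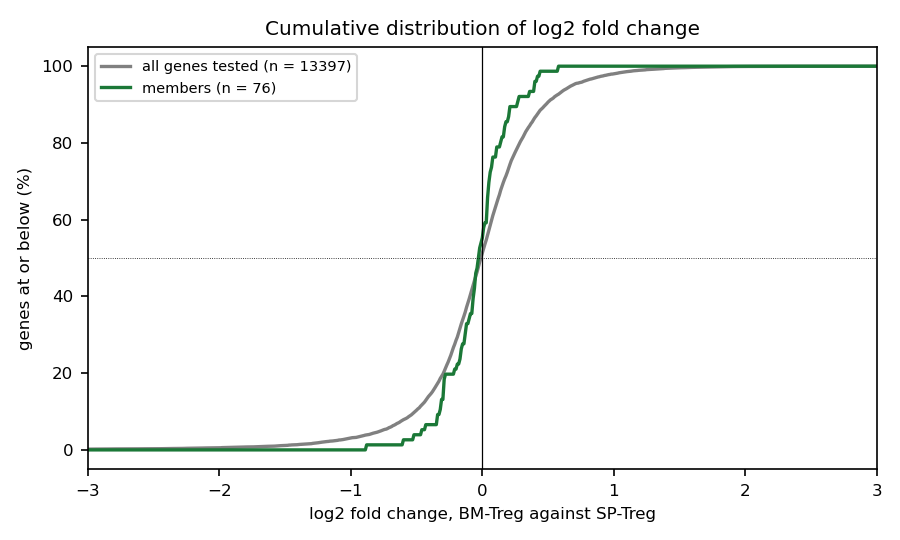
Share of genes (%) at or below each log2 fold change of BM-Treg against SP-Treg, for the 76 members and for all 13397 genes tested, drawn from -3 to 3. Both curves cross the middle near 0, and the members' curve is the steeper one, with a lowest value of -0.89 and a highest of 0.58.

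Mrps6 encodes a protein of the small subunit with a bacterial homologue. Its gene (ENSMUSG00000039680) lies on the plus strand at chr16:92058270-92112227 of GRCm38. Its level was 12.01, 14.7, 21.7 and 17.2 CPM in BM-Treg replicates 1 to 4 and 31.5, 29.9, 27.0 and 31.3 CPM in SP-Treg replicates 1 to 4. Each BM-Treg library lay below each SP-Treg library, with BM-Treg replicate 3 nearest to the spleen and replicate 1 farthest from it. The mean was 16.4 ± 4.10 CPM in the marrow and 29.9 ± 2.05 CPM in the spleen (SD, n = 4). The log2 fold change was -0.89 (SE 0.16, 95% interval -1.23 to -0.55), with an edgeR adjusted p of 0.00347. Per length, Mrps6 had 21.6 ± 5.08 FPKM in BM-Treg and 38.4 ± 4.68 FPKM in SP-Treg (SD, n = 4).

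The batch and the sex labels differed in part with the tissue. In batch 3, which holds 1 BM-Treg library, the log2 fold change of Mrps6 was -0.79, with no test. With batch as a term it was -0.81 and the edgeR adjusted p was 0.137, so that Mrps6 was not called. In that model 1.93% of all genes tested were called at the threshold of 0.05. Since batch 1 holds no spleen library, the tissue estimate in that model rests on BM-Treg replicate 4 against the spleen. For Mrps6 it stayed near the -0.89 found without a batch term, and the lost call is no measure of a batch effect. Without BM-Treg replicates 1 and 2 the log2 fold change of Mrps6 was -0.62 and the edgeR adjusted p was 0.0780, while without SP-Treg replicate 1 it was -0.85 with an adjusted p of 0.0136. Over 21 other settings the adjusted p lay between 3.03e-05 and 0.137, and Mrps6 was called in 19. The estimate was thus below 0 throughout, and the call was lost with the batch term and without BM-Treg replicates 1 and 2.

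Mrps6 shares bases of its first exon with Slc5a3, which encodes a sodium and myo-inositol cotransporter and was looked at after its values had been seen. In GENCODE M21, the main Mrps6 transcript has 3 exons and 846 bases, of which 159 bases (18.8%) are also in the first of the 2 exons of Slc5a3, which starts 52 bases downstream on the same strand. Reads that lie wholly in those bases cannot be assigned to either gene by sequence, so that both counts are uncertain to that extent. Slc5a3 was at 54.7, 58.7, 52.1 and 38.8 CPM in BM-Treg and at 213, 136, 120 and 122 CPM in SP-Treg. It was lower in each BM-Treg library than in any SP-Treg library, as was Mrps6, with a log2 fold change of -1.55 (SE 0.19) and an edgeR adjusted p of 0.00105. Slc5a3 was also called without BM-Treg replicates 1 and 2 (-1.70) and without SP-Treg replicate 1 (-1.31), its highest library. With batch as a term its log2 fold change was -1.94, which rests on BM-Treg replicate 4 against the spleen. When the counts of both genes were summed, the log2 fold change was -1.41 and the adjusted p 2.24e-04. How far reads from Slc5a3 contributed to the Mrps6 count was not tested. The main Mrps6 transcript, ENSMUST00000047429, held 98.1 ± 1.93% of the gene's counts in BM-Treg and 98.4 ± 1.83% in SP-Treg (SD, n = 4). That share is taken among the transcripts of Mrps6 and does not measure how many reads stem from Slc5a3.

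The promoter windows of Mrps6 and Slc5a3 in RefSeq, 300 bases round each gene's start, share 286 bases. The stretch of the Mrps6 window that precedes the first annotated exon is shown because the annotated starts of both genes with lower counts lie shortly after it. Whether either gene is transcribed from it was not tested. The stretch covers 184 bases of the plus strand at chr16:92058086-92058269 (GRCm38.p6). None of the 6 motifs searched (given with the promoters of the other members) was in it, so that it has no capitals.
Mrps6: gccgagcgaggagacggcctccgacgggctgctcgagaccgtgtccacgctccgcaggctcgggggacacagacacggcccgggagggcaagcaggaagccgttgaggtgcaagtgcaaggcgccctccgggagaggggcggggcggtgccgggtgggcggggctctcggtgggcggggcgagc

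**Figure D3:**
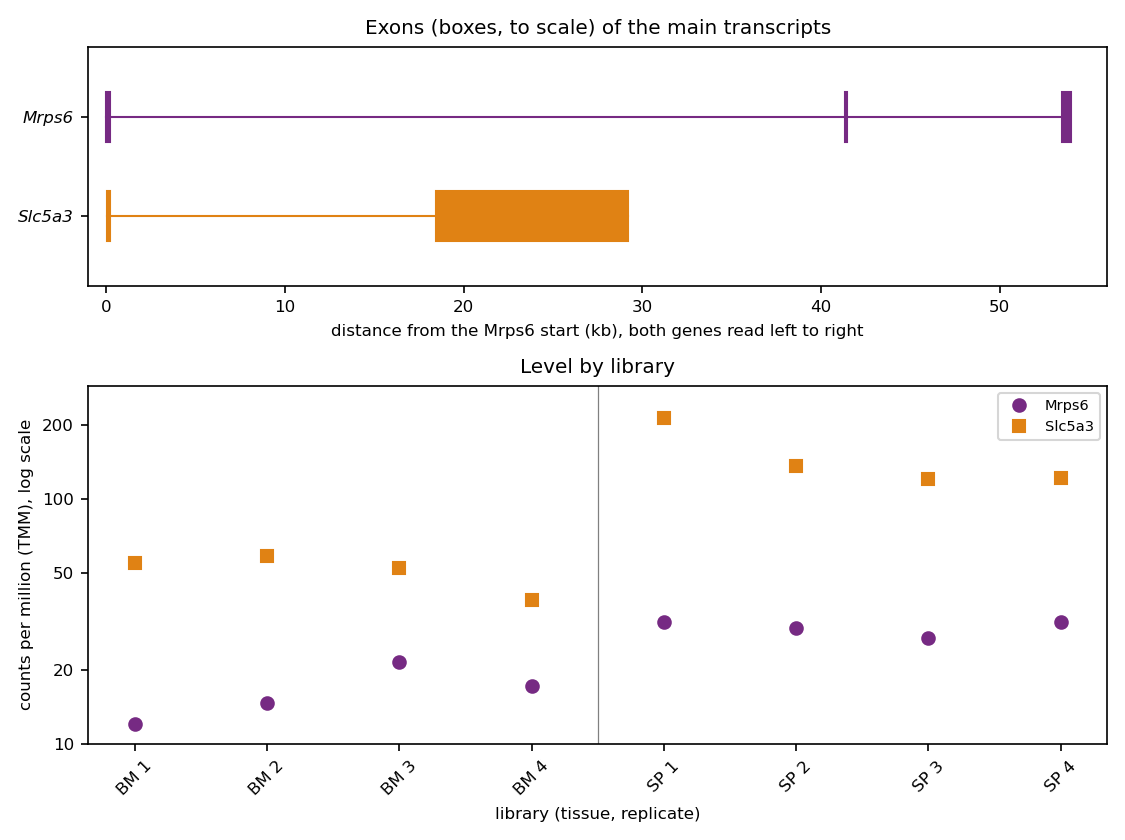
Exons (boxes) of the main transcripts of Mrps6 and Slc5a3 by distance in kb from the Mrps6 start (top), and the level of both genes in CPM on a log axis in each library (bottom). The first exons lie at the same place, and for both genes the 4 BM-Treg libraries lie below the 4 SP-Treg libraries.

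Among the other members of the small subunit, the highest estimates were those of Mrps34, Mrps24 and Mrps33, and the lowest after Mrps6 was that of Mrps27. Mrps34, a protein found only in mitochondrial ribosomes, was at 3.35, 5.78, 6.07 and 6.29 CPM in BM-Treg and at 3.40, 2.53, 3.14 and 5.07 CPM in SP-Treg. BM-Treg replicate 1 lay with the spleen and the tissues overlapped. Its log2 fold change was 0.58 (95% interval -0.04 to 1.19), with an edgeR adjusted p of 0.245. The Mrps34 gene lies wholly within Mapk8ip3 on the opposite strand and shares 1003 bases with Nme3 on its own strand. Since the counting was not stated to use strand, its counts are uncertain.

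Mrps24, a small subunit protein with a bacterial homologue, was at 13.1, 15.8, 15.2 and 21.1 CPM in BM-Treg and at 12.6, 12.2, 10.4 and 13.0 CPM in SP-Treg. The tissues did not overlap, although BM-Treg replicate 1 and SP-Treg replicate 4 were nearly level. The log2 fold change was 0.41 (95% interval 0.05 to 0.77) and the edgeR adjusted p 0.157, so that the gene was not called. Its gene overlaps Urgcp on the same strand over 2264 bases, with the same uncertainty. Mrps33 was at 13.4, 6.99, 9.31 and 19.0 CPM in BM-Treg and at 7.37, 9.95, 8.10 and 10.9 CPM in SP-Treg. Here the BM-Treg libraries were spread more widely than the spleen and covered its range (log2 fold change 0.39, 95% interval -0.20 to 0.99, edgeR adjusted p 0.431). Mrps27, a pentatricopeptide repeat protein of the small subunit, was at 3.73, 4.10, 2.83 and 5.62 CPM in BM-Treg and at 4.48, 4.42, 5.21 and 7.90 CPM in SP-Treg. Only BM-Treg replicate 4 reached into the spleen's range (log2 fold change -0.47, 95% interval -1.07 to 0.14, edgeR adjusted p 0.351).

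In the large subunit, Mrpl34, which has a bacterial homologue, came closest to the threshold. It was at 16.6, 15.4, 19.0 and 15.5 CPM in BM-Treg and at 11.4, 13.1, 11.4 and 12.5 CPM in SP-Treg. Each BM-Treg library lay above each SP-Treg library. The means were 16.6 ± 1.69 and 12.1 ± 0.846 CPM (SD, n = 4), the log2 fold change 0.44 (SE 0.15, 95% interval 0.13 to 0.75) and the edgeR adjusted p 0.0771. DESeq2 gave an adjusted p of 0.0369 and limma-trend on log2(FPKM + 1) one of 0.0415, and over all settings the adjusted p lay between 0.0369 and 0.441. The gene (ENSMUSG00000034880, chr8:71464926-71465752, plus strand) had 1 transcript with counts. The bases before its start at chr8:71464676-71464925 (RefSeq, GRCm38.p6, plus strand) are shown with the letters of an ETS motif in capitals.
Mrpl34: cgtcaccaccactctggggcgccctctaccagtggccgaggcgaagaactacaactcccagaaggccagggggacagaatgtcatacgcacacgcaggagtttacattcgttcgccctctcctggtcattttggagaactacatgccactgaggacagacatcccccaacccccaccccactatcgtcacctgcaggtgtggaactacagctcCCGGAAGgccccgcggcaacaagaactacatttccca

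Mrps30, which despite its name is placed in the large subunit by structures of the ribosome, was at 12.9, 9.69, 14.5 and 13.5 CPM in BM-Treg and at 11.9, 7.74, 9.26 and 9.06 CPM in SP-Treg. BM-Treg replicate 2 and SP-Treg replicate 1 crossed over (log2 fold change 0.39, SE 0.19, edgeR adjusted p 0.218). Mrpl45, which lies at the exit of the peptide tunnel and contacts the inner membrane, was at 6.44, 7.31, 5.98 and 5.03 CPM in BM-Treg and at 10.8, 9.00, 7.69 and 7.97 CPM in SP-Treg. All BM-Treg libraries were below the spleen, by a small margin between BM-Treg replicate 2 and SP-Treg replicate 3 (log2 fold change -0.53, 95% interval -0.95 to -0.10, edgeR adjusted p 0.119). Mrpl11, part of the base of the stalk where translation factors bind, was at 3.41, 4.56, 6.29 and 7.63 CPM in BM-Treg and at 9.18, 7.27, 5.37 and 10.8 CPM in SP-Treg. The tissues overlapped, and its interval of -1.19 to -0.02 was wide (log2 fold change -0.61, edgeR adjusted p 0.197). Mrpl9, which has a bacterial homologue, was at 11.5, 19.7, 18.2 and 24.4 CPM in BM-Treg and at 28.8, 22.4, 18.6 and 28.1 CPM in SP-Treg. BM-Treg replicate 1 was the lowest library and replicate 4 lay amid the spleen (log2 fold change -0.44, SE 0.21, edgeR adjusted p 0.225).

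The estimates of these members moved in both directions when batch was a term. Batch 1 holds no spleen library, so that these estimates rest on BM-Treg replicate 4 against the spleen. They cannot separate batch from what is particular to that library. With batch as a term the log2 fold change was 0.81 for Mrps34, 0.34 for Mrpl34, 0.79 for Mrps24, 1.05 for Mrps33 and 0.49 for Mrps30, and -0.11 for Mrpl11, -0.83 for Mrpl45, 0.01 for Mrps27 and -0.02 for Mrpl9. In batch 3 alone, with no test, it was 0.85, 0.36, 0.81, 1.07 and 0.52 and then -0.05, -0.78, 0.07 and 0.02 in the same order. Mrps34, Mrps24, Mrps33, Mrps30 and Mrpl45 thus lay farther from 0 than with all libraries and no batch term, Mrpl34 somewhat nearer, and Mrpl11, Mrps27 and Mrpl9 close to 0 or on its other side. When BM-Treg replicates 1 and 2 were omitted the values were 0.80, 0.51, 0.58, 0.63 and 0.56 and then -0.24, -0.68, -0.40 and -0.21. When BM-Treg replicate 4 alone was omitted, Mrps24 had 0.26 and Mrps33 0.11. Of these 9 members edgeR called 0 in any of these settings.

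**Figure D4:**
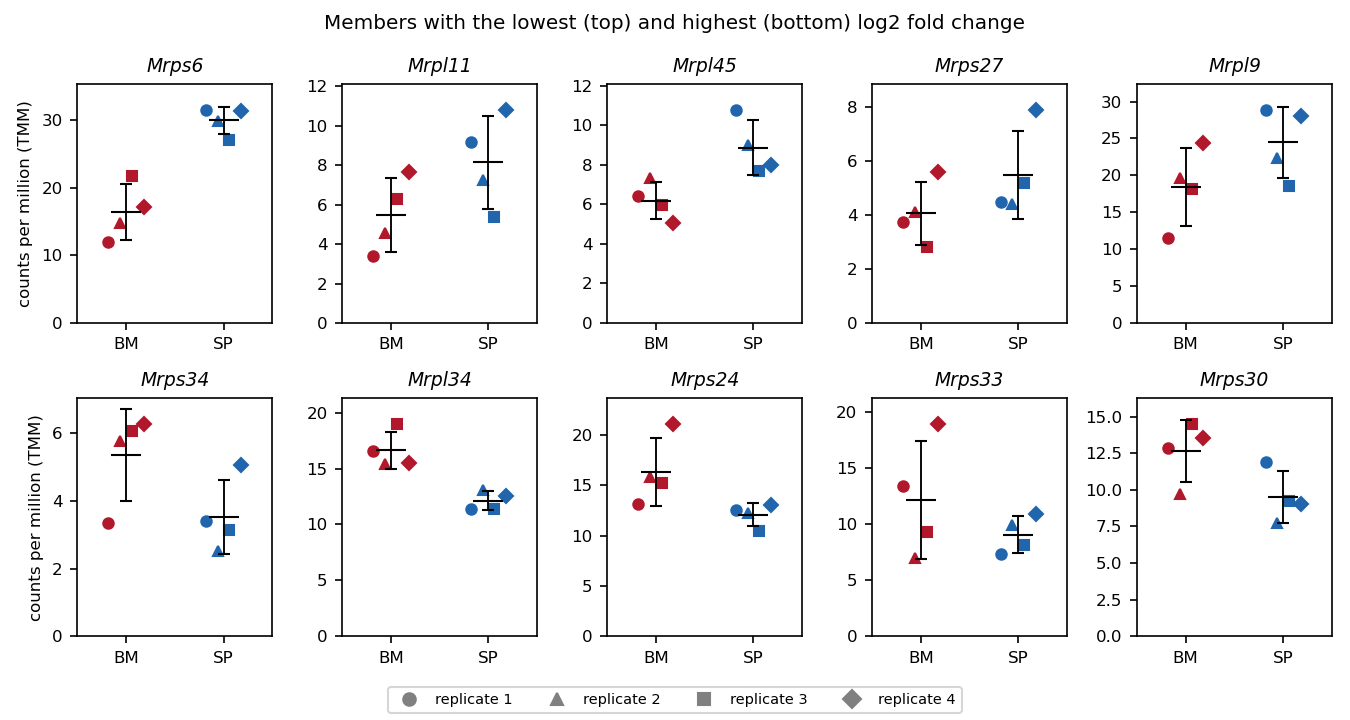
Level in CPM of the 5 members with the lowest log2 fold change (top row) and the 5 with the highest (bottom row) in each library, with the mean and SD of each tissue (n = 4) in black. Mrps6, Mrpl45, Mrpl34 and Mrps24 are the genes of these 10 in which the tissues did not overlap.

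Counted without a test, the libraries of both tissues did not overlap for 2 members that were higher in BM-Treg, Mrpl34 and Mrps24, and for 3 that were lower, Mrps6, Mrpl45 and Mrpl39. Over all genes tested the same held for 8.26% and 7.67%, so that the members' counts of 2 and 3 among 76 were below the background. By FPKM the members' counts were 3 and 1, beside 9.23% and 4.94% of all genes tested. Without BM-Treg replicates 1 and 2, where fewer libraries have to lie apart, they were 12 (15.8%) and 5 (6.58%), beside 15.6% and 13.5% of all genes tested. Mrpl39, the last of these and named after its values were seen, was at 22.2, 23.1, 25.7 and 26.0 CPM in BM-Treg and at 26.5, 31.2, 32.0 and 26.6 CPM in SP-Treg. BM-Treg replicate 4 and SP-Treg replicate 1 differed by less than the spread within either tissue (log2 fold change -0.28, SE 0.12, edgeR adjusted p 0.181).

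By subunit, the 49 members of the large subunit had a median log2 fold change of -0.02 and the 26 of the small subunit one of -0.03. Mrps36 was counted in neither, because its product is now assigned to the 2-oxoglutarate dehydrogenase complex. Of the large subunit 0 members were called by edgeR, with 1 higher and 5 lower at an unadjusted p below 0.05, against 3 higher and 0 lower by limma-trend, while limma-voom called 0 and DESeq2 and limma-trend 1; of the small subunit 1 was called by each of these tools. The 5 lower by edgeR are 10.2% of the large subunit, beside 12.4% of all genes tested, and the 3 higher by limma-trend 6.12%, beside 13.8%. Without SP-Treg replicate 1, edgeR gave 2 higher (4.08%) and 1 lower (2.04%), beside 10.4% and 10.5% of the genes tested with all libraries. Without BM-Treg replicates 1 and 2 the counts were also 2 and 1, beside 9.32% and 8.34%. The middle of the estimates, from the lower to the upper quartile, ran from -0.13 to 0.08 in the large subunit and from -0.27 to 0.09 in the small one. The 3 genes named Mrps18 encode related proteins, of which that of Mrps18a is found in the large subunit and those of Mrps18b and Mrps18c in the small one. Mrps18a had 12.6 ± 1.09 FPKM in BM-Treg and 11.3 ± 1.05 FPKM in SP-Treg, Mrps18b had 7.09 ± 3.77 and 6.79 ± 1.07 FPKM, and Mrps18c had 16.01 ± 5.17 and 17.7 ± 5.05 FPKM (SD, n = 4). The tissues overlapped for each of them. Mrps18b was the most uneven, since BM-Treg replicate 4 had 12.4 FPKM and the other BM-Treg libraries 5.58, 3.73 and 6.59 FPKM. The 95% interval of its log2 fold change was wide, at -0.64 to 0.73, against -0.29 to 0.44 for Mrps18a and -0.60 to 0.48 for Mrps18c. Over 21 other settings the estimate for Mrps18b lay between -0.35 and 0.88, of which the upper value is outside that interval.

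Levels per length differed far more between members than between tissues. The mean FPKM over all libraries ran from 2.42 for Mrpl11 to 68.6 for Mrps21, a ratio of 28.3, with a median of 12.1 and quartiles of 7.64 and 17.9. For 65 of the 76 members it lay between 5 and 50 FPKM. The median was 12.2 FPKM for members of the large subunit and 11.3 FPKM for those of the small one. The order of the members was nearly the same in both tissues, with a Spearman correlation of 0.966 between their mean FPKM in BM-Treg and in SP-Treg across the 76 genes, which share gene length and libraries and are not independent replicates.

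Mrps21, a small subunit protein, was the highest with 63.9, 72.4, 67.8 and 75.9 FPKM in BM-Treg and 63.2, 67.3, 53.8 and 84.4 FPKM in SP-Treg. The spleen held both the lowest and the highest of these values. Mrpl52, a large subunit protein found only in mitochondria, followed with 60.6 ± 4.40 FPKM in BM-Treg and 48.0 ± 5.32 FPKM in SP-Treg (SD, n = 4; edgeR adjusted p 0.297). Next came Mrpl18 with 45.5 ± 8.48 and 42.0 ± 2.79 FPKM, Mrpl24 with 40.1 ± 4.83 and 39.5 ± 4.94 FPKM, and Mrpl33 with 42.0 ± 6.86 and 36.3 ± 9.51 FPKM, all in the large subunit. The values of the last 3 overlapped between the tissues. At the low end were Mrpl47 with 4.28 ± 1.13 and 3.24 ± 0.367 FPKM, Mrpl45 with 2.69 ± 0.508 and 3.85 ± 1.05 FPKM, Mrpl35 with 3.02 ± 0.260 and 2.94 ± 0.609 FPKM, Mrps27 with 2.33 ± 0.584 and 3.04 ± 0.880 FPKM, and Mrpl11 with 1.97 ± 0.591 and 2.88 ± 0.916 FPKM, each given for BM-Treg and then SP-Treg. The ratio of the tissue means in FPKM ran from 0.562 for Mrps6 to 2.12 for Mrps33. In Mrps33 the ratio rests on BM-Treg replicates 1 and 4, at 28.5 and 31.5 FPKM, whereas BM-Treg replicates 2 and 3 were at 10.4 and 10.6 FPKM and the spleen at 9.57 ± 3.02 FPKM (SD, n = 4).

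Summed over the members, levels were close in both tissues. The members took 0.1004, 0.114, 0.113 and 0.113% of all counts on genes in BM-Treg replicates 1 to 4 and 0.112, 0.101, 0.0988 and 0.121% in SP-Treg replicates 1 to 4. Mitochondrially encoded genes took between 19.2 and 32.9% of counts, so the share was also taken of the other counts only. It was then 0.135, 0.151, 0.149 and 0.158% in BM-Treg and 0.139, 0.144, 0.147 and 0.172% in SP-Treg. The tissues overlapped by both measures, and the spread within the spleen exceeded the difference between the means, which were 0.148 ± 0.00995 and 0.151 ± 0.0150% (SD, n = 4). Summed FPKM were 1203 ± 85.5 in BM-Treg and 1158 ± 127 in SP-Treg, a ratio of 1.04. Rescaled to a fixed sum in each library without the mitochondrially encoded genes, the summed FPKM were 2735 ± 113 and 2735 ± 186.

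Many members shared the library in which they were highest or lowest. SP-Treg replicate 4 was the highest of the spleen libraries for 47 of the 76 members, and BM-Treg replicate 4 the highest of the marrow libraries for 41. BM-Treg replicate 1 was the lowest marrow library for 47 members. The same counts over all genes are not given here, so that these do not show a trait of the members alone. The members' median log2 fold change was 0.09 without SP-Treg replicate 4 and 0.05 without BM-Treg replicate 1, so that its sign turned with either library. In batch 3 alone, which compares BM-Treg replicate 4 with the spleen, it was 0.13. The median coefficient of variation of a member was 15.7% in BM-Treg and 15.2% in SP-Treg, beside 15.7% and 17.1% over all genes tested.

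**Figure D5:**
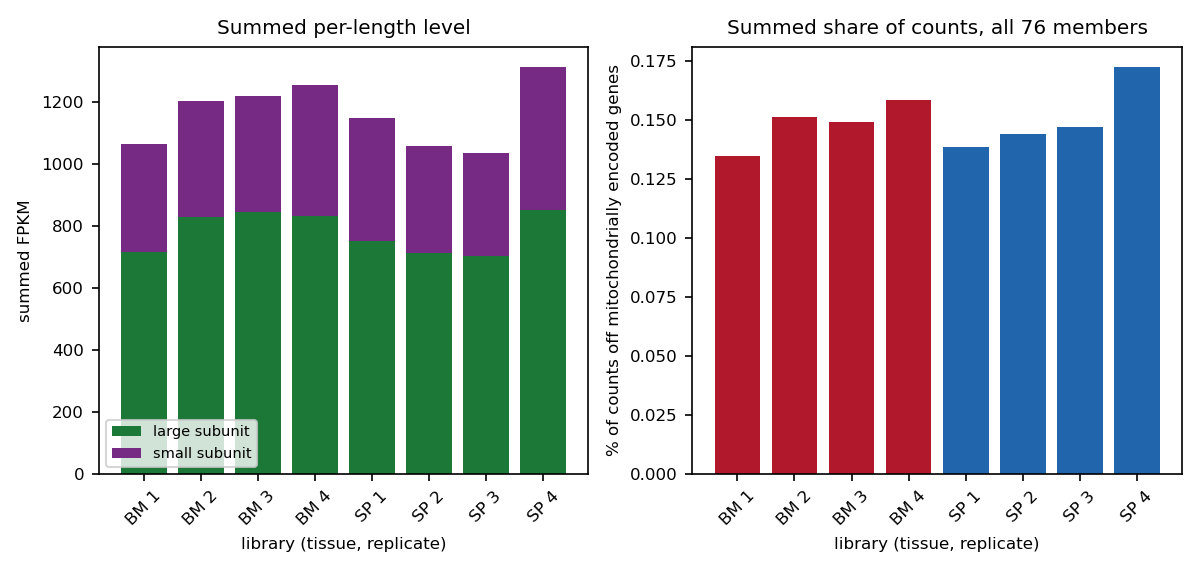
Left: FPKM summed over the members of the large and small subunit in each library. Right: counts on all 76 members as a share (%) of counts off mitochondrially encoded genes. SP-Treg replicate 4 is the highest library in both panels, at 0.172% in the right one, and the other libraries of both tissues overlap.

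Transcripts were described by their share of each gene's counts. Of the 76 genes, 21 had a single annotated transcript, and for 64 the most abundant transcript held over 50% of the gene's counts. Its share did not overlap between the tissues for 2 members, which were named after their values were seen. These are 3.64% of the 55 members with more than 1 transcript, beside 4.55% of 8456 such genes among all tested. In Mrpl21 the main transcript held 64.7 ± 7.82% of counts in BM-Treg and 81.7 ± 5.51% in SP-Treg, and in Mrps12 it held 79.8 ± 14.2% in BM-Treg and 48.4 ± 18.2% in SP-Treg (SD, n = 4). In Mrps33, ENSMUST00000031978 held 34.2, 78.4, 92.9 and 47.8% in BM-Treg and 100, 100, 99.1 and 83.9% in SP-Treg. BM-Treg replicates 1 and 4, in which this share was low, were also those with the highest Mrps33 CPM. Such shares are estimates for transcripts that overlap, and the differences were not tested.

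In the genome the members are spread over 17 chromosomes, with the most, 10, on chromosome 11. A position feature that the rule did not use is a neighbour that starts close by on the opposite strand. Of the 76 members, 29 (38.2%) had a protein coding gene on the other strand that started within 1000 bases, against 16.9% of the 11517 other protein coding genes tested. The distance between the starts had a median of 148 bases. Mrps11 and Mrpl46, named after their values were seen, are each other's neighbour on chromosome 7, with the genes overlapping over 413 bases, so that their counts cannot be fully told apart without strand. Mrps11 had a mean of 6.57 ± 0.892 CPM in the marrow and of 5.35 ± 1.07 CPM in the spleen, and Mrpl46 one of 8.78 ± 1.39 and 8.38 ± 1.09 CPM (SD, n = 4), with edgeR adjusted p of 0.497 and 0.906.

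Of the 26 neighbours that were tested, edgeR called 0 higher and 1 lower, with 1 higher and 2 lower at an unadjusted p below 0.05; DESeq2 called 0 and 2. At an unadjusted p below 0.05 the edgeR counts are 3.85% and 7.69% of the neighbours, beside 10.9% and 12.4% of all genes tested. Of all genes tested, edgeR called 5.02% lower. The 1 neighbour called by edgeR, named after its values were seen, was Tcp1 beside Mrpl18. Tcp1, a subunit of the cytosolic chaperonin CCT, was at 128, 148, 165 and 137 CPM in BM-Treg and at 295, 245, 213 and 235 CPM in SP-Treg. It fell in BM-Treg (log2 fold change -0.79, SE 0.11, edgeR adjusted p 0.00105), and the tissues did not overlap. Tcp1 was also called without BM-Treg replicates 1 and 2 (-0.71) and without SP-Treg replicate 1 (-0.68). With batch as a term its log2 fold change was -0.86, which rests on BM-Treg replicate 4 against the spleen. Mrpl18, whose start lies 644 bases from that of Tcp1 and whose gene overlaps it over 645 bases, was at 35.0, 34.8, 44.3 and 40.0 CPM in BM-Treg and at 36.6, 38.2, 33.9 and 47.0 CPM in SP-Treg. These values overlapped throughout (log2 fold change -0.04, 95% interval -0.31 to 0.24), and the interval did not reach that of Tcp1, which ran from -1.03 to -0.55. The difference between both genes itself was not tested, and without strand the counts in the shared bases are uncertain. Counts of members with near-identical copies are uncertain in the same way: Mrpl23 was at 1.19, 4.52, 2.97 and 1.34 CPM in BM-Treg and at 4.70, 3.32, 2.32 and 2.25 CPM in SP-Treg, beside means of 3.88 ± 0.896 and 4.44 ± 2.24 CPM for the pseudogene Mrpl23-ps1 (SD, n = 4). Both tissues overlapped for either gene. Over all members, 22 are overlapped by another protein coding gene, 6 of them on the same strand.

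Promoter sequences from RefSeq (GRCm38.p6) matched 67 of the 76 members, with 73 promoters in all. Each was searched on both strands for the letters CCGGAAG (bound by ETS factors such as GABP), GCATGCGC (NRF1), AAGATGGCG (YY1), CACGTG (the E box, bound by MYC among others), CCAAT (NFY) and TATAAA; none of these letter strings contains another, although the end of the first can be the start of the third. CCGGAAG was in 24 of the 73 promoters (32.9%), beside 8.86% of all 32851 promoters and 17.9% of those of genes tested here. GCATGCGC was in 8 (11%), beside 2.71% and 5.34%, and AAGATGGCG in 8 (11%), beside 1.40% and 3.10%. The E box was in 9.59% of members' promoters, beside 7.15% and 9.98%, CCAAT in 41.1%, beside 37.4% and 38%, and TATAAA in 6.85%, beside 13.6% and 6.98%. Of the 67 members, 33 held none of the ETS, NRF1 and YY1 letters, 28 held 1 kind and 6 held 2 kinds. These are matches of letters and not sites of binding.

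Windows round some of the matches in named members are shown, and how alike they are was not measured. The capitals mark the ETS letters, or their reverse complement CTTCCGG, in the first 4 lines and the YY1 letters in the last 3. Mrpl52 and Mrps21 are the members with the highest levels per length, Mrps18a and Mrps27 hold both kinds, and Mrps24 and Mrpl35 hold the YY1 letters but not the ETS letters. The windows lie at chr14:54426852-54426878, chr3:95871480-95871506, chr17:46110968-46110994, chr13:99344728-99344754, chr11:5707652-5707675, chr13:99344790-99344818 and chr6:71823743-71823771, in the order of the lines (RefSeq, GRCm38.p6), each read 5′ to 3′ on the strand of its gene, which is the minus strand for Mrps21, Mrps24 and Mrpl35.
Mrpl52: aagatgtcggCTTCCGGttttcccggc
Mrps21: gtagcttccgCTTCCGGtccgcagaga
Mrps18a: cacccctgctCCGGAAGcggaagtgca
Mrps27: ggtaggaccaCTTCCGGcggaggcggg
Mrps24: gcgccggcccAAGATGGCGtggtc
Mrps27: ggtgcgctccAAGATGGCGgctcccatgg
Mrpl35: ggcaggctgcAAGATGGCGgcttccatct

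Members that hold the same letters had estimates on both sides of 0. Mrpl34 and Mrps33 (log2 fold change 0.44 and 0.39) and Mrps27 (-0.47) hold the ETS letters, and Mrps24 (0.41) and Mrps27 the YY1 letters. Among the factors known for such promoters, 9 of 10 passed the filter, of which edgeR called 0 higher and 1 lower, with 1 higher and 2 lower at an unadjusted p below 0.05, as DESeq2 did; limma-voom and limma-trend called 0. The 1 factor called by edgeR is 11.1% of those tested, beside 8.75% of all genes tested, called in either direction. That factor was Myc, at 45.7, 40.5, 54.4 and 44.5 CPM in BM-Treg and at 56.8, 68.4, 134 and 117 CPM in SP-Treg. The spleen fell into 2 low and 2 high libraries, all above the marrow (log2 fold change -1.04, SE 0.26, edgeR adjusted p 0.0413).

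The other genes of mitochondrial translation were described from lists. Of the 7 mitoribosomal proteins with other names, 0 were called by edgeR, DESeq2, limma-voom or limma-trend, with 1 lower at an unadjusted p below 0.05, and their median log2 fold change was 0.04. Without BM-Treg replicates 1 and 2, edgeR called 0, with 2 higher (28.6%) and 0 lower at an unadjusted p below 0.05. Over the genes tested with all libraries it was then 9.32% and 8.34%. In the small subunit, Dap3 had a log2 fold change of 0.04, Ptcd3 of -0.03, Aurkaip1 of 0.25 and Chchd1 of -0.63 (SE 0.26, edgeR adjusted p 0.158). In the large subunit, Gadd45gip1 was at -0.09, Mrp63 at 0.26 and Ict1, a peptidyl-tRNA hydrolase built into the particle, at 0.05. Of 12 translation factors 1 was called lower, of 19 mitochondrial tRNA synthetases tested 2 were called higher, of 24 assembly and rRNA modification genes tested, with Nsun4 in 2 rows, 1 was called higher, and of 12 genes of mitochondrial transcription and RNA handling 0 were called. The share called was 8.33, 10.5, 4.17 and 0% of these lists, beside 8.75% of all genes tested, called in either direction. The median log2 fold changes of the lists were -0.19, -0.02, -0.11 and -0.10, against -0.01 for all genes. The counts of the translation factors depended on the tool. By edgeR 0 were higher and 3 (25%) were lower at an unadjusted p below 0.05, beside 10.9% and 12.4% of all genes tested. By limma-trend on log2(FPKM + 1) 2 (16.7%) were higher, 0 were lower and 0 were called. Over all genes that tool had 13.8% higher and 7.47% lower. At an unadjusted p below 0.05, the list of transcription and RNA handling had 1 gene higher (8.33%) and 2 lower (16.7%) by edgeR, beside 10.9% and 12.4%. DESeq2 called 1 of its genes lower, Tfam, and the other tools 0.

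Gfm1, the mitochondrial elongation factor that moves the ribosome along the messenger, was at 20.4, 25.1, 26.0 and 22.5 CPM in BM-Treg and at 37.6, 32.1, 30.8 and 28.7 CPM in SP-Treg. It was lower in all BM-Treg libraries (log2 fold change -0.48, SE 0.13, edgeR adjusted p 0.0287). Mpv17l2, a factor in assembly of the ribosome, was at 8.23, 11.3, 12.7 and 9.39 CPM in BM-Treg and at 5.42, 6.24, 5.79 and 6.89 CPM in SP-Treg. It was higher in all BM-Treg libraries (log2 fold change 0.75, SE 0.19, edgeR adjusted p 0.0254). Mars2, which charges mitochondrial tRNA with methionine, was at 7.20, 8.62, 8.54 and 5.87 CPM in BM-Treg and at 5.42, 3.79, 2.56 and 3.91 CPM in SP-Treg. Here too the marrow was the higher tissue throughout (log2 fold change 0.93, SE 0.25, edgeR adjusted p 0.0313). Lars2, the leucine enzyme, had 9515, 8008, 10710 and 6914 CPM in the marrow libraries and 5196, 5248, 4611 and 4653 CPM in those of the spleen. The tissues did not overlap, with BM-Treg replicate 4 nearest to the spleen (log2 fold change 0.82, SE 0.14, edgeR adjusted p 0.00251). The level of Lars2 stands far above that of the next synthetase of the list, Iars2, which was at most 49.5 CPM in any library. Why Lars2 is so high was not tested, and a scaling without Lars2 and the mitochondrially encoded genes was therefore among the settings. With Myc, 5 genes of these lists were called by edgeR; without BM-Treg replicates 1 and 2 it was 1, Lars2, and with batch as a term 0. Without SP-Treg replicate 1 it was 3, Lars2, Mars2 and Myc, whereas Gfm1 and Mpv17l2 had adjusted p of 0.104 and 0.0625. With single libraries left out, Lars2 was called in 8 of 8 cases, Gfm1 and Mpv17l2 in 3 each, and Mars2 and Myc in 2 each.

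The ribosomal RNAs of the particle come from mitochondrial DNA. By CPM, mt-Rnr1 and mt-Rnr2 had log2 fold changes of -0.19 (SE 0.21) and -0.19 (SE 0.18), with edgeR adjusted p of 0.645 and 0.582, and of 13 mitochondrially encoded messengers 0 were called by edgeR, DESeq2, limma-voom or limma-trend, with 0 at an unadjusted p below 0.05. These estimates depend on SP-Treg replicate 1, without which they were -0.35 and -0.34, with edgeR adjusted p of 0.232 and 0.136 and with all BM-Treg libraries below the other spleen libraries for mt-Rnr2. Of the messengers 0 were then called by edgeR, with 0 higher and 6 lower at an unadjusted p below 0.05. The 6 lower are 46.2% of the 13 messengers, beside 10.5% of the genes tested with all libraries. With BM-Treg replicates 1 and 2 omitted the estimates were 0.00 and -0.13, and with batch as a term 0.19, above 0, and -0.04. Among genes for the cytosolic ribosome, 78 of 81 were tested, of which edgeR called 1 higher, Rps21, and 3 lower, Rplp0, Rpl3 and Rpl4, named after their values were seen, with a median log2 fold change of -0.10, against 0 and 1 of 76 and a median of -0.03 for the mitochondrial ribosome. The direction depended on the tool, since DESeq2 called 3 higher and 4 lower, limma-voom 2 and 3, and limma-trend 2 and 0. Without BM-Treg replicates 1 and 2, 0 were called by edgeR, with 4 higher and 2 lower at an unadjusted p below 0.05, against 9.32% and 8.34% of the genes tested with all libraries. Without SP-Treg replicate 1, 0 were called higher and 4 lower, with 3 and 18 at an unadjusted p below 0.05 (3 and 7 with all libraries) and with Rps21 and Rplp0 no longer called (edgeR adjusted p 0.0994 and 0.0722). The 18 lower are 23.1%, beside 10.5% of the genes tested with all libraries. With all libraries the share called was 5.13%, beside 8.75% of all genes, and the 7 lower were 8.97%, beside 12.4%. The difference between the cytosolic and the mitochondrial ribosome was not tested.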

How the data were processed

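Bulk RNAseq of 4 BM-Treg and 4 SP-Treg libraries was used as deposited. According to the submitters' processing notes, cutadapt 1.9, STAR 2.5.2a, RSEM 1.2.30 and GRCm38 were used. Per gene and per transcript, the tables deposited by the authors hold expected counts, estimates of reads that can be fractions and that were not normalized between libraries. FPKM values, also from the authors, divide such counts by transcript length and depth; those per transcript were not used here. Columns were matched to libraries by name, with 0 columns left over.

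After rounding, counts on genes passed edgeR's default filter and TMM scaling, and the tissues were compared by the quasi-likelihood test of edgeR (robust, no covariate; R 4.3.3, edgeR 4.0.16, limma 3.58.1, DESeq2 1.42.0; figures with Python 3.11.15 and matplotlib 3.10.9). Benjamini-Hochberg adjustment ran over all genes tested, with a threshold of 0.05, and the 95% intervals come from the same model. The test was checked on simulated data. Some members with few counts, such as Mrps34 and Mrps18b, have wide intervals. Copies made in amplification could not be removed, for want of molecular identifiers, and several reads can stem from 1 molecule. No libraries of a tissue were duplicates, with a chi-square per degree of freedom of at least 14.2. The labels do not say whether replicates came from separate mice, and p-values measure the spread between these libraries.

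Named genes are the members called at 0.05 (at most 20), the 5 highest and 5 lowest by log2 fold change and by mean FPKM, any member that failed the filter (0 did), the Mrps18 genes, and in the other lists the genes called and the mitoribosomal proteins with other names. Of 166 list entries 159 matched a gene. The members and lists were chosen with earlier results of these data known. Exons and start sites are from GENCODE M21 and promoters from RefSeq (GRCm38.p6).

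Settings varied one at a time were the scaling (DESeq2 size factors, upper quartile, totals alone, no mitochondrially encoded genes and Lars2), the test (DESeq2, limma-voom, and limma-trend with pseudocounts of 1 and 0.1 added to FPKM before log2), the filter (1 count in total, or 10 in each library), the threshold (0.01, or a log2 fold change of at least 1) and the design (batch in the model, only batch 3, blocks by replicate number, single libraries omitted). Chosen after seeing the data were omission of BM-Treg replicates 1 and 2, overlap of libraries by FPKM and by other scalings, Mrps6 summed with Slc5a3, and these omissions and the batch term for named genes outside the members.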

Additional observations from a re-analysis of the deposited data

Results flagged for a closer look

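In 2 of 42 groups of 4 libraries a library stood far from the other 3, by a rule that flags 1 in 20 independent groups by chance. Both were SP-Treg replicate 4: the CPM summed over the members was 1242 there, against 1047, 1064 and 1056 in SP-Treg replicates 1 to 3, and Mrpl33 was at 33.64 CPM, against 25.2, 25.3 and 25.5 CPM. Mrpl33 is among the members summed, so that the groups are not independent and that rate does not describe them. The cause was not tested.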

How the results depend on the processing

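Mrps6 was called lower in BM-Treg by edgeR with 4 other scalings, by DESeq2, limma-voom and limma-trend, with both other filters, at a threshold of 0.01 and with any single library left out. The number of members called lower was 0 with batch as a term, 0 without BM-Treg replicates 1 and 2 (chosen after seeing the data, and with fewer libraries) and 0 with a log2 fold change of at least 1, which its estimate of -0.89 does not reach. With batch as a term Mrps6 had -0.81 and without BM-Treg replicates 1 and 2 it had -0.62, and the cause was not tested. The number called higher was 1 with DESeq2 and 1 with limma-trend with either pseudocount, each time Mrpl34. The median of the members was 0.10 with batch as a term and 0.13 in batch 3 alone. With single libraries left out, it lay between -0.06 and 0.09, with 0 members higher and 1 lower in each.

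Members that did not overlap and were lower in BM-Treg numbered 1 with library totals alone (5.41% of all genes tested) and 1 by FPKM (4.94%), both chosen after seeing the data, and those higher 3 in each (9.70% and 9.23%). Without BM-Treg replicates 1 and 2, 12 did not overlap and were higher and 5 were lower, beside 15.6% and 13.5% of all genes tested; of the other mitochondrial lists 1 gene was then called and of the cytosolic ribosomal protein genes 0. The former lists, with 5 genes called, had 2 with limma-trend, 0 with batch as a term and between 1 and 4 with single libraries left out, and the latter, with 4, had 7 with DESeq2 (3 higher and 4 lower), 2 with limma-trend (both higher), 0 with batch as a term and between 0 and 11. Over all genes, 1172 calls became 1707 with DESeq2, 765 and 728 with limma-trend, 258 with batch as a term, 690 without BM-Treg replicate 2 and 312 without BM-Treg replicates 1 and 2. Besides Mrps6 and Mrpl34, 0 named members were called by any of these tools or settings.

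With the replicate block, 0 members were called higher and 1 lower, the median was -0.03, Mrps6 had an edgeR adjusted p of 0.0107 (range over alternatives 3.03e-05 to 0.137), the other mitochondrial lists had 2 genes called, and calls over all genes went from 1172 to 948. The numbers do not pair the samples: correlations of deviations between libraries of the same number were -0.107, 0.0596, -0.176 and 0.0398, and libraries correlated best with their own number for 1 of the 4 numbers. Mrps34 and Mrps18b had an SE of 0.29 and 0.32, beside a median of 0.18 over the members, and the cause was not tested.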
